A study of Mus musculus with 22 samples.

Results

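Early Posterior PSM cells are the mouse gastruloid cells that the depositing group placed in the cluster of that name, PSM standing for presomitic mesoderm. They were taken here by that deposited cluster label, and their counts were read from the lane matrices by lane and cell barcode. There were 6313 of them among 77674 cells of the final cell table, which holds 25 cell types from 18 lanes. Of the 6313 cells, 3830 (60.7%) carried the barcode of 1 gastruloid, 1347 came from libraries in which the gastruloid was not identifiable, 790 were negative for a barcode and 346 carried more than 1. The 3830 cells with a single call are the base of every comparison between gastruloids, which are the replicates.

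Presomitic mesoderm is the tissue on both sides of the tail end of the embryo from which somites, the blocks that give rise to vertebrae and skeletal muscle, are cut off one pair after another. Its posterior end is held in an immature state by Wnt and FGF signals from the tail bud and carries out the oscillations of the segmentation clock, a negative feedback loop built on Notch signalling and Hes transcription factors. Towards the anterior end Wnt and FGF signals fade, retinoic acid made by the somites rises, and genes such as Mesp2 prefigure the next boundary.

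The gastruloids were aggregates of wild-type E14Tg2A mouse embryonic stem cells, with 300 cells seeded in each well. After 48 h of aggregation all of them were treated with CHIR99021 at 3 µM, which turns on the Wnt pathway by blocking GSK3, so the day 3 to day 5 groups differ in age and experiment and share the line and the Wnt pulse. MULTI-seq, used in 3 experiments, gave every gastruloid its own lipid-anchored DNA barcode, and tagged gastruloids were pooled before droplet capture. Day 3 and day 4 were also profiled as 1 lane each without tags (the 10X groups). The experiments used here held day 5 (MULTI-seq 1, 24 gastruloids), days 4 and 4.5 (MULTI-seq 2, pool B with 12 gastruloids on each day, 1 of which at day 4 had under 30 final cells and entered no share, and pool C without gastruloid calls), and day 3 with 24 and days 3.5, 4, 4.5 and 5 with 16 gastruloids each (MULTI-seq 3). MULTI-seq 2 also had 4 lanes of days 3 and 3.5 (pools A and C), which were not analysed here. All gastruloids came from 1 cell line, so the spread between them is that of separate aggregates and not of separate lines or embryos. The median Early Posterior PSM cell had 8149 to 34683 UMIs (unique molecules counted) depending on the lane, and the median mitochondrial share was between 2.13% and 2.89% in MULTI-seq 3 and between 4.96% and 6.38% in the other experiments. The final table repeated 732 cell barcodes in more than 1 lane, and 121 Early Posterior PSM cells had a barcode seen in another lane, 21 of them within their own pool.

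Of the 4 genes that mark posterior presomitic mesoderm, Tbx6 and Dll1 were found in these cells well above neural cells in every group compared. The clusters may have been drawn from these same genes, so the comparison with neural cells is a description. The Msgn1 share lay above the limit for neural cells in the MULTI-seq groups, by the least at day 4 of MULTI-seq 2 (2.94% against 1.775% after thinning). That share has a counting error of its own, which was not set against the limit, so an excess in that group is not shown. Msgn1 and Tbx6 encode transcription factors that commit cells to presomitic mesoderm, Dll1 encodes the Notch ligand, and Hes7 encodes the repressor at the core of the mouse clock. With every cell thinned to 5000 UMIs, a Tbx6 UMI was found in 33.8% to 57.1% of Early Posterior PSM cells across the 7 combinations of experiment and day compared, against 0% to 2.44% of cells of neural types in the same libraries, whose median depth was 15500 to 37730 UMIs before thinning against 12690 to 32660. A Dll1 UMI was found in 31.7% to 75.1%, against 0% to 3.91% of the neural cells. Msgn1 was sparse, with a UMI in 0.816% to 10.7% of cells after thinning. It had no UMI in the thinned neural cells, 41 to 1026 per group, which allows a share of up to 7.32% in the smallest group and 0.292% in the largest (3 counts, counting error only). In the untagged lanes the Msgn1 share of 2.74% at day 3 and 0.816% at day 4 lay under these limits (7.32% and 1.304%), so Msgn1 above background was not detectable there after thinning; without thinning 8.23% of the day 3 cells had a UMI. Hes7 marked the cells less sharply, with a UMI in 31.1% to 61.6% of Early Posterior PSM cells and in 8.88% to 33.04% of the neural cells.

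Msgn1 lies on chromosome 12 (11208360 to 11208972, minus strand), Tbx6 on chromosome 7 (126781483 to 126785560, plus strand), Dll1 on chromosome 17 (15367354 to 15376872, minus strand) and Hes7 on chromosome 11 (69120404 to 69124055, plus strand) of GRCm38. The promoters of these markers, and that of the boundary gene Mesp2 (chromosome 7, 79810727 to 79813439, plus strand), are shown because the levels of the genes moved apart between days. Each sequence, from RefSeq on GRCm38.p6, is the gene's own strand 5′ to 3′ and ends before both the RefSeq and the GENCODE start: chr12:11208973-11209198 for Msgn1, chr7:126781233-126781482 for Tbx6, chr17:15376933-15377182 for Dll1, chr11:69120203-69120403 for Hes7 and chr7:79810477-79810726 for Mesp2. Capitals mark matches on either strand to the core of TCF/LEF sites (CTTTGA, the DNA-binding partners of β-catenin) or of RBPJ sites (TGGGAA, the DNA-binding partner of Notch).
Msgn1: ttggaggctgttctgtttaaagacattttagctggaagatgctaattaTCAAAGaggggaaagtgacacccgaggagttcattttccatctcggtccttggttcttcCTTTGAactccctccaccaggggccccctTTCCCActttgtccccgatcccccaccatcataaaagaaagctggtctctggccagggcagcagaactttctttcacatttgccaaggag
Tbx6: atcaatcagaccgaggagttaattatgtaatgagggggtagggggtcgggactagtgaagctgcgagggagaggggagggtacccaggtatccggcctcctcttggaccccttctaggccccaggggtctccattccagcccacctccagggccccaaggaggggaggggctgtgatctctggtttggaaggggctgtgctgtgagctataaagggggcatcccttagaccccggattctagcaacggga
Dll1: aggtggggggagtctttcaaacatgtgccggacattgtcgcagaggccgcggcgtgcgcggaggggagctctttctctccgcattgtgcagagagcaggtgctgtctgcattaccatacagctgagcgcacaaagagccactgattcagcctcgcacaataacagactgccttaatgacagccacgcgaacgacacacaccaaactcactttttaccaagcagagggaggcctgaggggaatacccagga
Hes7: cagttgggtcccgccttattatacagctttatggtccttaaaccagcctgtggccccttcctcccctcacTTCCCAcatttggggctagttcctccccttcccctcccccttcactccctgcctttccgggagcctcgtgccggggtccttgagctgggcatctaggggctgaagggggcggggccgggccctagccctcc
Mesp2: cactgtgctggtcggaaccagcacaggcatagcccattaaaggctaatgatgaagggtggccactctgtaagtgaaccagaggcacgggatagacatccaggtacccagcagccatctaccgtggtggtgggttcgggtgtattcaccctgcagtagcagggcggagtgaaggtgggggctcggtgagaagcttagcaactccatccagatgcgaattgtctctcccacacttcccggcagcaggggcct
The 226 bases of Msgn1 held 2 TCF/LEF cores and 1 RBPJ core, and the 201 bases of Hes7 held 1 RBPJ core. The windows of Tbx6, Dll1 and Mesp2 held neither, and no window held a T-box half-site (AGGTGT) or the E-box CACGTG. Of 32851 RefSeq promoters read over 250 bases, 13.8% held the TCF/LEF core, 21.6% the RBPJ core, 11.8% the T-box half-site and 6.02% the E-box, so that these matches are common letters and describe the windows only.

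The cells appeared in every day 3 gastruloid of MULTI-seq 3, took their largest mean share of a gastruloid at day 3.5, and were nearly gone by day 5. At day 3 they made up 1.41% of the cells of the lowest gastruloid, 3.86% of the median and 16.0% of the highest (mean 5.12% ± 3.62, SD, n = 24). At day 3.5 the lowest, median and highest shares were 1.25%, 12.1% and 64.2% (mean 22.9% ± 21.3, n = 16). The day 3.5 gastruloids thus ranged from a share near that of the lowest day 3 gastruloid (4 of 321 cells against 3 of 213) to a majority. Mean share was 17.8 percentage points higher at day 3.5 than at day 3, with 14 of 16 gastruloids above the day 3 median (two-sided permutation test with 100000 resamples, p = 0.00018). Day 3 was a pool of its own, so day and pool cannot be told apart in that difference.

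At day 4 the shares ran from 1.497% through a median of 8.82% to 32.0% in MULTI-seq 3 (mean 14.3% ± 10.7, n = 16). MULTI-seq 2 gave nearly the same day 4 distribution, with 1.64%, 9.60% and 39.3% (mean 14.3% ± 11.01, n = 11). By day 4.5 the median had come down to 1.27% in MULTI-seq 3 (highest 3.09%, 2 of 16 gastruloids without a cell) and 1.76% in MULTI-seq 2 (highest 6.88%, 2 of 12 without a cell). At day 5 a cell was found in 5 of 16 gastruloids of MULTI-seq 3, with a mean share of 0.0479%, and in 9 of 24 gastruloids of MULTI-seq 1, with a mean share of 0.21%. The untagged lanes held 20.3% at day 3 (620 of 3058 cells, exact 95% binomial interval 18.9% to 21.7%) and 10.04% at day 4 (245 of 2440, 8.88% to 11.3%). The untagged day 3 lane thus held a higher share than any of the 24 day 3 gastruloids of MULTI-seq 3, whose highest was 16.0%.

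**Figure D1:**
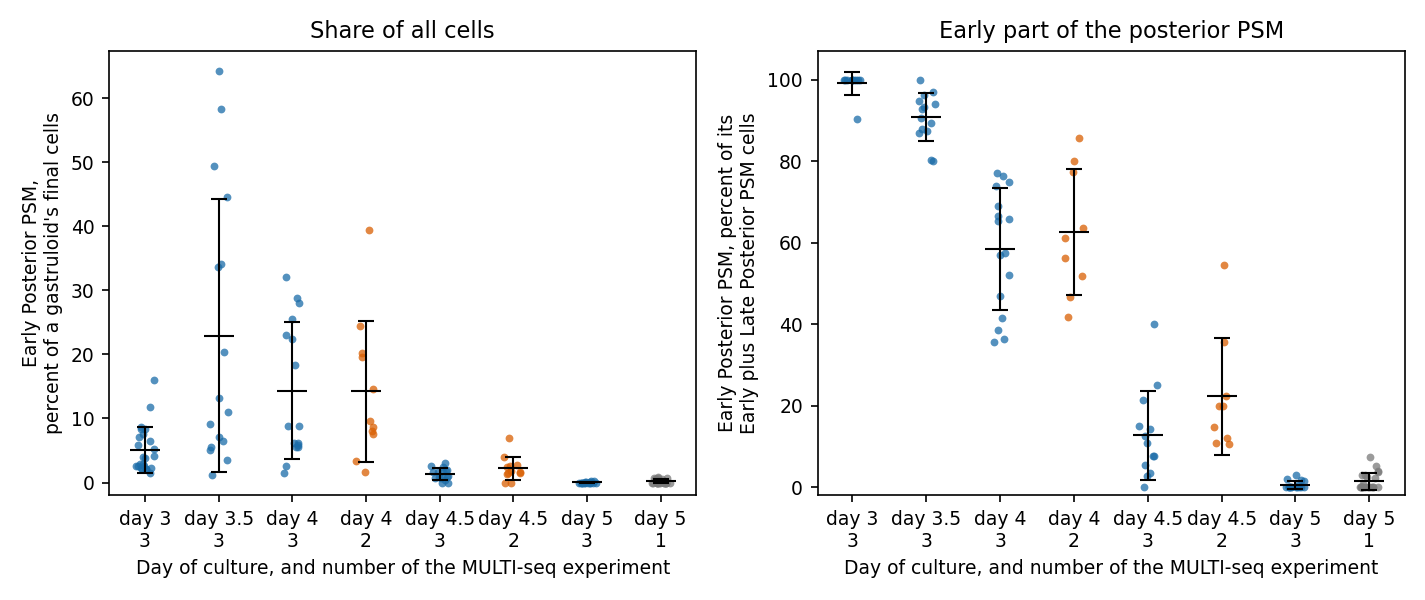
Share of Early Posterior PSM cells in each gastruloid (percent of its final cells) by experiment and day, and their share among Early plus Late Posterior PSM cells; each point is 1 gastruloid and bars give mean ± SD. Shares at day 3.5 spread from 1.25% to 64.2%, and the early share of posterior PSM came down from a median of 91.8% at day 3.5 to 61.5% at day 4.

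A share of all cells depends on how much neural tissue a gastruloid holds, so the early cells were also counted among Early plus Late Posterior PSM cells only. Late Posterior PSM is the neighbouring deposited cluster of the same tissue, with 5800 cells. In MULTI-seq 3 the early cells were 80.0%, 91.8% and 100% of posterior PSM in the lowest, median and highest gastruloid of day 3.5 (mean 90.8% ± 5.89, n = 14). At day 4 the values were 35.7%, 61.5% and 77.1% (mean 58.4% ± 14.9, n = 16). The 2 days did not overlap, and the mean fell by 32.3 points with all 16 day 4 gastruloids below the day 3.5 median (permutation test, p = 2e-05, the smallest that 100000 two-sided resamples can give, 4e-05 adjusted over 2 comparisons). MULTI-seq 2 followed the half-day after that. There the early cells went from 41.7%, 61.3% and 85.7% at day 4 (mean 62.7% ± 15.4, n = 9) to 10.7%, 20% and 54.5% at day 4.5 (mean 22.3% ± 14.4, n = 9), a fall of 40.4 points (exact permutation test, two-sided, adjusted p = 0.000206). All 9 gastruloids of day 4.5 were below the day 4 median, and the ranges overlapped. The sources used here do not say how the cluster labels were made, so these shares count cells by label only. Whether the change between the 2 clusters is gradual was not tested.

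The depositors' mapping of each cell to an embryo atlas placed most Early Posterior PSM cells outside the atlas type called presomitic. Over all 6313 cells, 65.1% mapped to Intermediate mesoderm, 20.3% to Nascent mesoderm, 4.89% to Paraxial mesoderm, 3.41% to Caudal epiblast, 3.25% to Somitic mesoderm and 0.871% to Presomitic mesoderm. The atlas names and the cluster names therefore differ for most of these cells. In MULTI-seq 3 a day 3 gastruloid had a mean of 72.0% ± 10.6 of its Early Posterior PSM cells mapped to Nascent mesoderm and 6.68% ± 6.25 to Intermediate mesoderm (n = 11). At day 3.5 the means were 17.7% ± 8.94 and 72.8% ± 15.1 (n = 13), and at day 4 they were 7.33% ± 4.06 and 74.9% ± 7.87 (n = 16). The mapped embryo stage moved in parallel. Cells mapped to embryonic day 8.0 were 1.67% ± 3.77 of a gastruloid's Early Posterior PSM cells at day 3, 46.5% ± 13.9 at day 3.5 and 67.7% ± 8.20 at day 4. The mapping may have used the same transcripts as the clusters, and these shares are descriptions.

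**Figure D2:**
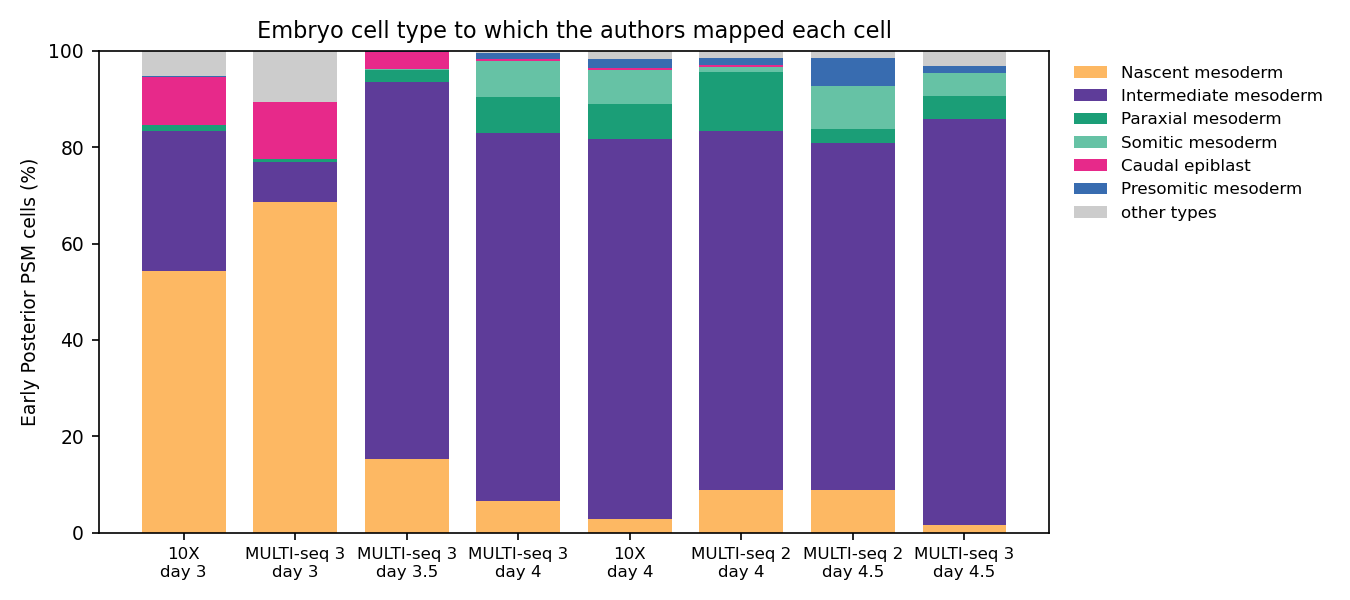
Percent of Early Posterior PSM cells mapped to each embryo atlas type (stacked bars, cells of all gastruloids of an experiment and day together). Nascent mesoderm is the largest type at day 3 in the 10X lane and in MULTI-seq 3, and Intermediate mesoderm is the largest in every later bar.

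Between day 3.5 and day 4, 8 of 14 presomitic determination genes and 7 of 11 streak genes tested were lower in the cells. Of 9 anterior presomitic and somite genes tested, 8 were higher. The early cells were also a smaller part of posterior PSM at day 4 (mean 58.4%) than at day 3.5 (90.8%). Whether cells placed in the late cluster instead contribute to the gene changes was not tested. Both days shared 1 pool and its 4 lanes in MULTI-seq 3, and UMI counts were summed per gastruloid over Early Posterior PSM cells (13 gastruloids with 1214 cells at day 3.5, 16 with 1917 cells at day 4). Values below are CPM (a gene's UMIs per 1000000 UMIs summed over a gastruloid's Early Posterior PSM cells) in the lowest, the median and the highest gastruloid, and log2 fold changes carry their standard error. Of 9605 genes tested with edgeR's quasi-likelihood test, 38.3% passed an adjusted p (Benjamini-Hochberg) of 0.05, 1893 higher (19.7%) and 1786 lower (18.6%) at day 4, and the median log2 change was 0.01. A call as such is therefore common, and the size of a change says more: 109 genes rose and 129 fell by at least 1 on the log2 scale. With 10 cells drawn per gastruloid, 296 of 4507 genes tested were higher and 353 lower at day 4. The cells were shallower at day 4, with a mean over gastruloids of the median UMI count of 32503 ± 3051 at day 3.5 and 28286 ± 2019 at day 4, and mitochondrial shares were 2.35% ± 0.109 and 2.45% ± 0.197.

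The 4 posterior presomitic markers did not move together. Msgn1 stood at 10.8, 22.0 and 27.4 CPM at day 3.5 and at 2.04, 4.98 and 10.9 CPM at day 4, a fall of 1.96 ± 0.16 on the log2 scale (edgeR adjusted p = 3.93e-12). All 16 day 4 gastruloids were below the day 3.5 median, and the groups met only at 1 edge, 10.8 against 10.9 CPM. Tbx6 fell by a smaller amount, from 115, 169 and 221 CPM to 91.3, 126 and 207 CPM (log2 -0.49 ± 0.09, adjusted p = 2.69e-05), with most of the 2 ranges shared. Dll1 rose, from 179, 241 and 378 CPM to 231, 315 and 446 CPM (log2 0.33 ± 0.08, adjusted p = 0.00229), and 14 of 16 day 4 gastruloids were above the day 3.5 median. Hes7 stood at 128, 178 and 240.3 CPM and then at 143, 176 and 259.8 CPM, a log2 difference of 0.02 ± 0.09 that did not pass the test (adjusted p = 0.925) and that turned to -0.01 and -0.04 when lane C or lane D was left out.

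**Figure D3:**
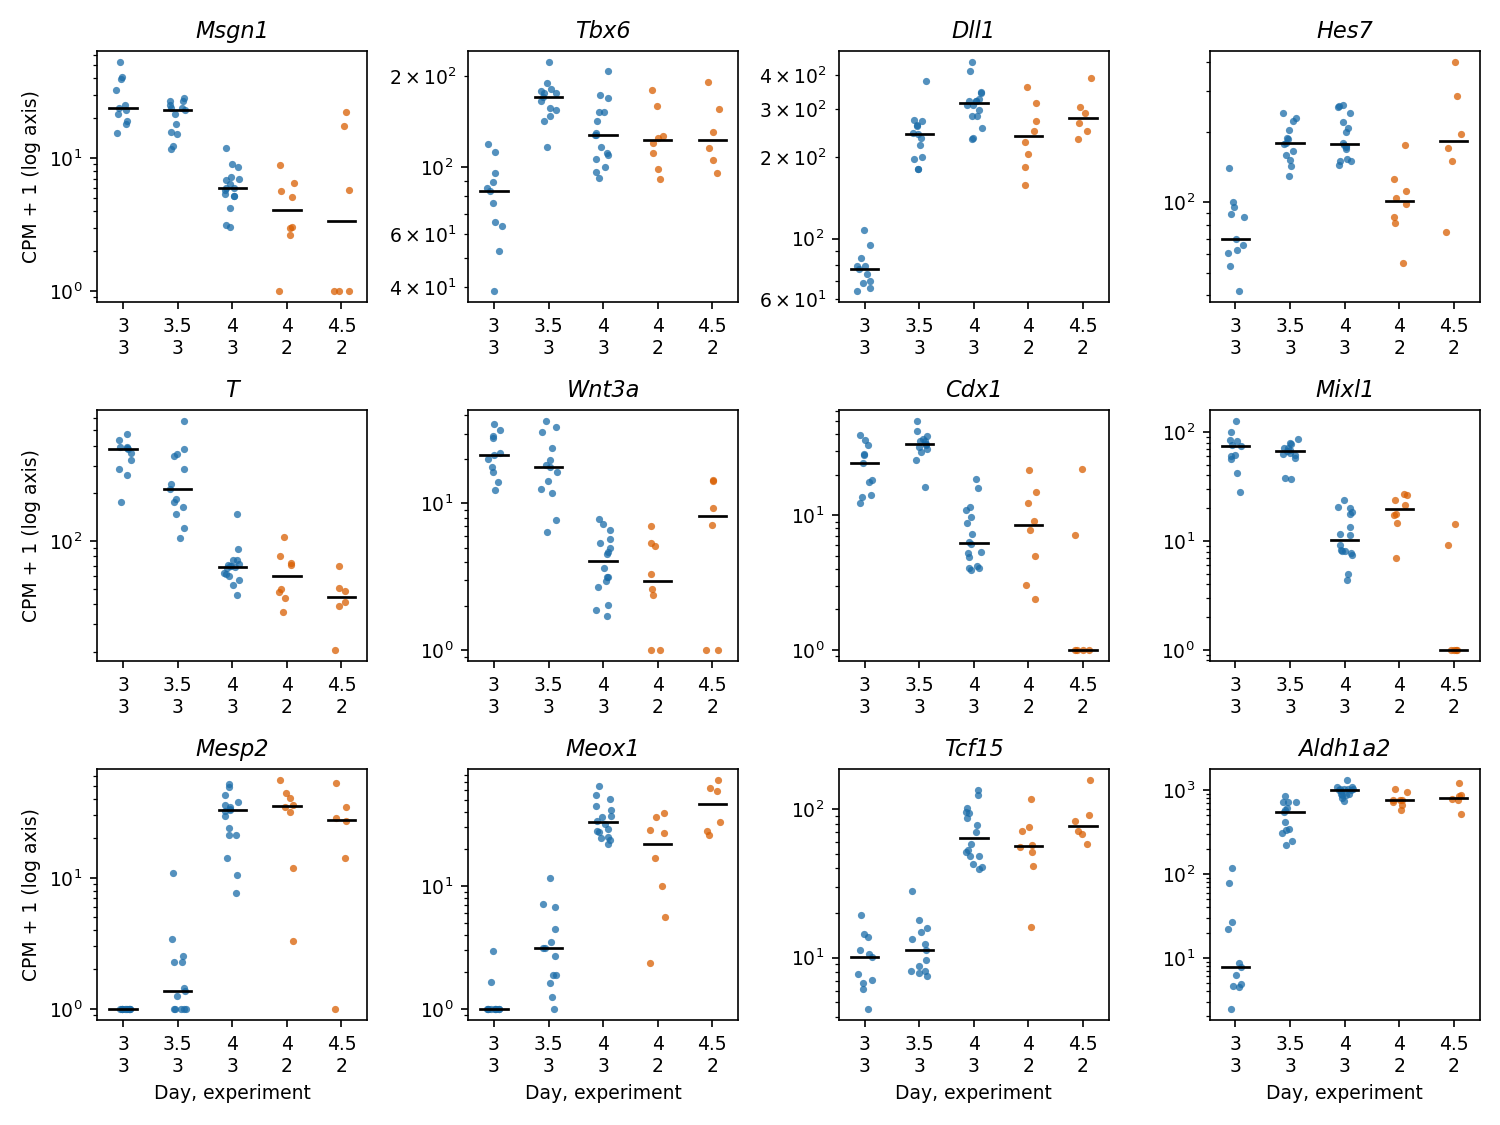
Levels of posterior, clock and anterior genes in Early Posterior PSM cells of single gastruloids (CPM + 1, log axis) by experiment and day; points are gastruloids and black lines are medians. Msgn1 and T are lower at day 4 than at day 3.5, Meox1, Tcf15 and Mesp2 are higher, and Hes7 overlaps between those 2 days after lower values at day 3.

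Counts for a gene list cover the members with enough counts to be tested. Over all genes tested, 19.7% were higher and 18.6% lower at day 4, and each list's counts are to be read beside these shares. A member that is low on 1 day can be tested only because it is high on the other, so these counts and medians describe the members tested and not the whole list. The list of presomitic determination genes had 14 members tested, of which 3 were higher and 8 lower at day 4, with a median log2 change of -0.54 against 0.01 over all genes. T, the T-box factor (Brachyury) of the streak and tail bud, went from 103, 212 and 571 CPM to 44.6, 68.0 and 148 CPM (log2 -1.87 ± 0.18, adjusted p = 2.19e-10). Cdx1, a caudal homeobox factor that patterns the trunk, went from 15.2, 33.1 and 49.2 CPM to 2.94, 5.23 and 17.6 CPM (log2 -2.44 ± 0.18, adjusted p = 1.08e-12). Its relative Cdx2 fell by 1.41 on the log2 scale and Evx1, a streak homeobox gene, by 1.67. Every day 4 gastruloid lay below the day 3.5 median for T, Cdx1 and Cdx2, and 15 of 16 did so for Evx1. The 3 members that rose were Dll1 and the protocadherins Pcdh8 (paraxial protocadherin, log2 1.97 ± 0.20) and Pcdh19 (log2 0.71).

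Streak and nascent mesoderm genes had 11 members tested, 2 higher and 7 lower, with a median of -0.63. Mixl1, a homeobox gene of the primitive streak, stood at 36.5, 66.1 and 85.4 CPM at day 3.5 and 3.37, 9.24 and 22.7 CPM at day 4, with no overlap (log2 -2.42 ± 0.17, adjusted p = 3.2e-13). Fst, which encodes the activin antagonist follistatin, fell from 431, 712 and 1146 CPM to 220.4, 312 and 486 CPM (log2 -1.35). The 2 that rose were Mesp1, a factor of nascent and anterior presomitic mesoderm, by 2.06, and Gata6, a factor of endoderm and cardiac mesoderm, by 0.67, of which the second was lost without lane A (log2 0.40, adjusted p = 0.255). Of 7 pluripotency genes tested, 1 was higher and 5 were lower (median -0.72), with Pou5f1 (the pluripotency factor Oct4) going from 100.5, 177 and 282 CPM to 28.2, 51.5 and 115 CPM (log2 -1.67 ± 0.16). Nodal pathway genes gave 0 higher and 4 lower of 7 (median -0.81), among them the co-receptor Tdgf1, with a median of 27.3 CPM and then 10.5 CPM (log2 -1.42).

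The Wnt list had 21 members tested, 1 higher and 13 lower (all genes: 19.7% and 18.6%), with a median of -0.38. Wnt3a, the ligand that maintains the tail bud, went from 5.42, 16.7 and 35.5 CPM to 0.709, 3.08 and 6.79 CPM (log2 -2.44 ± 0.27, adjusted p = 5.59e-09). Wnt5b fell by 1.40 and the transcriptional target Sp5 by 0.99. Dkk1, a secreted Wnt antagonist that is itself a Wnt target, fell by 2.21, from 3.04, 19.4 and 52.6 CPM to 0, 3.32 and 10.9 CPM. For all of these every day 4 gastruloid was below the day 3.5 median. The common targets Axin2, Lef1 and Nkd1, and the Wnt enhancer Rspo3, did not pass the test. The 1 member that rose was Sfrp1, a secreted Wnt antagonist, by 0.66.

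FGF genes gave 2 higher and 12 lower of 17 tested (median -0.36), beside 19.7% and 18.6% of all genes. The ligand Fgf17 went from 7.06, 17.7 and 30.2 CPM to 1.70, 4.17 and 20.4 CPM (log2 -1.88 ± 0.21, adjusted p = 7.41e-09), with 1 of 16 day 4 gastruloids above the day 3.5 median. The ligands Fgf8 and Fgf3 fell by 0.58 and 0.76, the receptor Fgfr1 by 0.32, and Dusp6, a phosphatase that FGF signalling induces against ERK, had a log2 change of -0.73. The fall of Fgf8 was not seen in the cells mapped to Intermediate mesoderm alone (log2 -0.11, adjusted p = 0.55). Among the feedback inhibitors Spry4 and Spred2 fell by 0.33 and 0.45, while the related Spry1 rose by 0.68. Spry2 was higher by 0.16 at the edge of the threshold, and 7 of its alternatives lost the call, among them DESeq2 (adjusted p = 0.0531).

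Notch and clock genes went the other way, with 10 higher and 0 lower of 14 tested (all genes: 19.7% and 18.6%) and a median of 0.27. Hes5, a Notch target, went from 3.13, 5.23 and 15.1 CPM to 7.98, 18.8 and 63.1 CPM (log2 1.62 ± 0.25, adjusted p = 1.94e-06). Nrarp, a target that feeds back on Notch, went from 23.1, 68.3 and 125 CPM to 70.5, 154 and 199 CPM (log2 0.86 ± 0.14, adjusted p = 3.4e-06), with all 16 day 4 gastruloids above the day 3.5 median and overlapping ranges. The ligand Jag1 rose by 1.52 and the target Hey1 by 1.34. Lfng, the glycosyltransferase that makes the clock's Notch activity oscillate, rose by 0.43 and the ligand Dll3 by 0.22, both lost when 10 cells were drawn per gastruloid (adjusted p = 0.0869 and 0.447). Notch1, Hes1 and Hes7 did not pass.

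Of the 18 listed anterior presomitic and somite genes, 9 had enough counts to be tested, of which 8 were higher and 1 lower (median 1.80). Mesp2 and Meox1 were near 0 at day 3.5 and met the filter through day 4, where they are high, so the count and the median are a description. Meox1, a homeobox factor of somites, was at 0, 2.10 and 10.6 CPM at day 3.5 and at 20.9, 32.0 and 63.8 CPM at day 4 (log2 3.19 ± 0.24, adjusted p = 1.53e-12). Tcf15 (paraxis), which is needed for somites to form an epithelium, went from 6.57, 10.3 and 27.4 CPM to 38.4, 63.4 and 133 CPM (log2 2.57 ± 0.21, adjusted p = 9.26e-12). Neither gene's groups overlapped. Mesp2, which sets the segment boundary, went from 0, 0.372 and 9.92 CPM to 6.65, 31.7 and 51.2 CPM (log2 3.52 ± 0.31), so that 1 day 3.5 gastruloid reached into the day 4 range. Foxc2 rose by 1.80 without overlap and its relative Foxc1 by 0.75. The exception was the ephrin receptor Epha4, which fell by 0.21.

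Of 9 retinoic acid genes tested, 4 rose and 1 fell (median 0.32), beside 19.7% and 18.6% of all genes. Aldh1a2, the enzyme that makes retinoic acid in the trunk, was already abundant at day 3.5, at 218, 544 and 858 CPM, and reached 744, 1007 and 1319 CPM at day 4 (log2 0.83 ± 0.14, adjusted p = 6.55e-06). All 16 day 4 gastruloids were above the day 3.5 median. Crabp1, a cytosolic retinoic acid binding protein, rose by 0.78, the receptor Rara by 0.66 and the oxidising enzyme Rdh10 by 0.52 (not called by DESeq2, adjusted p = 0.0533). Crabp2, the other binding protein, fell by 1.18. The degrading enzyme Cyp26a1 did not pass.

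BMP genes gave 5 higher and 2 lower of 11 (median 0.45), beside 19.7% and 18.6% of all genes. The members with the largest rises were Id genes, targets of BMP signalling that block bHLH factors. Id3 ranged widely, from 5.32, 16.8 and 274 CPM to 21.7, 234 and 450.5 CPM (log2 1.70 ± 0.36, adjusted p = 0.000284), and the 2 ranges shared most of their span. Id4 went from 0, 1.34 and 3.78 CPM to 2.66, 9 and 13.5 CPM (log2 2.33), and Id2 rose by 1.71. Of 17 Hox genes tested, 10 rose and 2 fell (median 0.47). Hoxb1, a Hox gene of the hindbrain and early trunk, was among those that fell (log2 -0.56 ± 0.07), while Hoxd4 rose by 0.77 and Hoxb4 by 0.60.

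**Figure D4:**
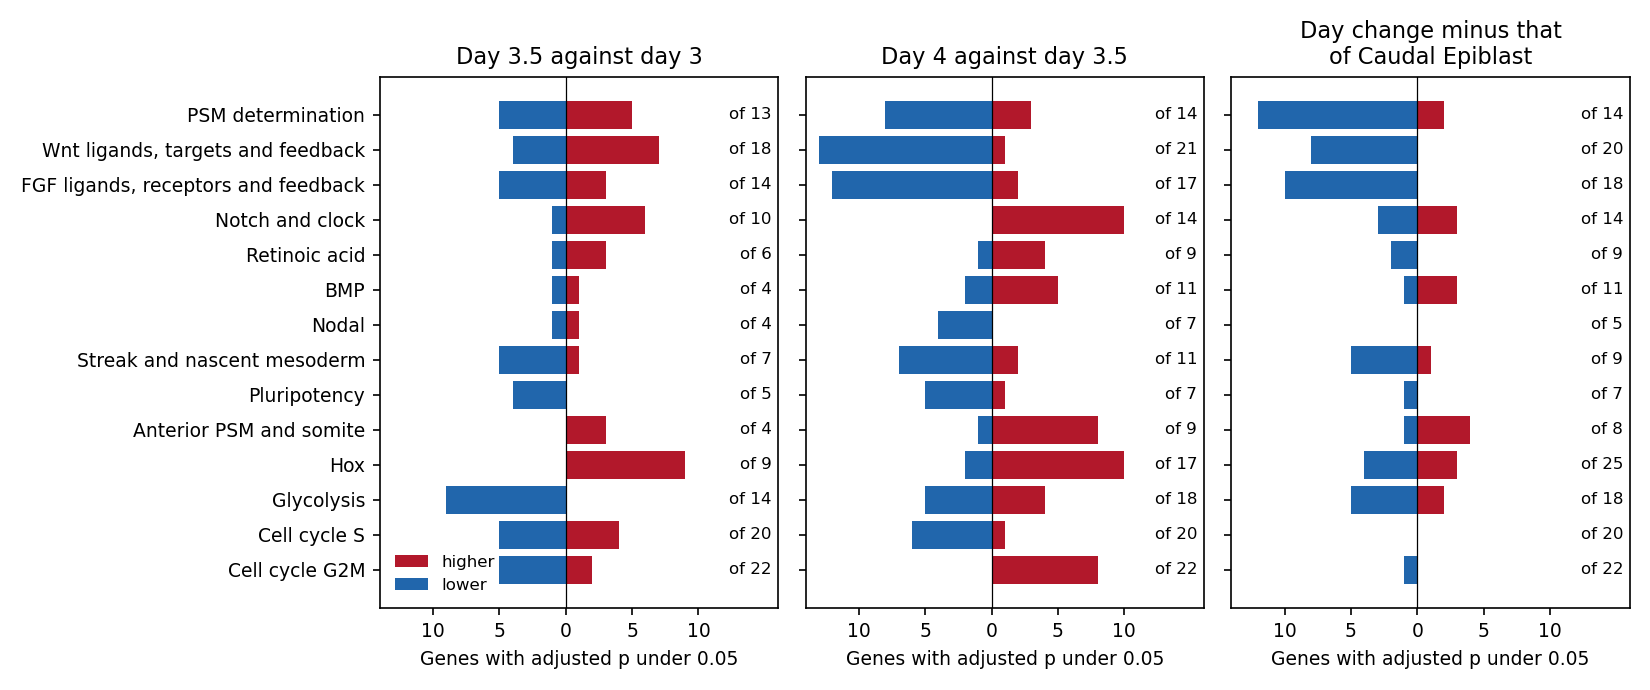
Numbers of genes of each list with an edgeR adjusted p under 0.05 that were higher (red, to the right) or lower (blue, to the left), out of the number tested at the right edge, for day 3.5 against day 3, day 4 against day 3.5, and the day 3.5 to day 4 change in Early Posterior PSM minus that in Caudal Epiblast. At day 4 against day 3.5 the Wnt bar has 13 lower and 1 higher, the Notch and clock bar 10 higher and 0 lower, and the anterior bar 8 higher and 1 lower. Over all genes tested, 24.8% were higher and 25.5% lower at day 3.5 against day 3, and 19.7% and 18.6% at day 4 against day 3.5. For the change minus that in Caudal Epiblast the shares were 4.93% and 7.71%.

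Outside these pathways, the genes with the smallest adjusted p values and a change of at least 1 on the log2 scale were of mixed function (Peli2, Smoc1, Efnb1, Irx3, Gbx2, S100a10 and Smc6 below), and Efnb2 and Epha1 are named with them from the adhesion list. Peli2, an E3 ubiquitin ligase, rose from 6.31, 12.4 and 17.2 CPM to 31.9, 36.2 and 43.9 CPM (log2 1.51 ± 0.08, adjusted p = 1.57e-16). Smoc1, a secreted matrix protein, rose from 12.6, 22.9 and 45.6 CPM to 54.6, 87.3 and 128 CPM (log2 1.82 ± 0.12). The ephrins Efnb1 and Efnb2, boundary ligands of Eph receptors, rose by 1.48 and 1.60, and Irx3, a homeobox gene of mesoderm and neural tissue, by 2.14. None of these 5 genes overlapped between days. They were picked for small adjusted p values and the share of all genes without overlap was not counted, so this describes them only. Epha1, an Eph receptor, fell by 1.95 and Gbx2, a homeobox gene of posterior epiblast and hindbrain, by 1.27. S100a10, an annexin partner, fell from 194, 404 and 751 CPM to 66.7, 98.5 and 152 CPM (log2 -2.06 ± 0.15). Smc6, of the SMC5/6 complex that maintains chromosomes, fell from 385, 575 and 650.2 CPM to 214, 262 and 334 CPM, also without overlap.

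Of 11 developmental timing genes tested, 3 were higher and 3 lower. Hmga2, a chromatin protein of early progenitors, rose from 128, 246 and 607 CPM to 318, 720.3 and 962 CPM (log2 1.08 ± 0.16), and the RNA-binding protein Igf2bp2 rose by 0.69 without overlap. Lin28a, which blocks let-7 maturation, fell by 0.21, and this small change no longer passed when 10 cells were drawn per gastruloid (adjusted p = 0.267). Of G2 and M phase genes 8 were higher and 0 lower of 22, and of S phase genes 1 was higher and 6 lower of 20. Of 20 adhesion genes 7 were higher and 7 lower, and of 18 glycolysis genes 4 were higher and 5 lower. These counts stand beside 19.7% higher and 18.6% lower over all genes. The deposited phase calls gave a mean of 48.0% ± 8.46 of cells in G2 or M at day 3.5 and 53.5% ± 5.71 at day 4.

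Among summed markers of other cell types, those of cardiac and head mesoderm had a higher median at day 4, while the neural and endoderm medians changed little. The summed level of 14 cardiac and head mesoderm markers was 30.2, 65.0 and 202 CPM at day 3.5 and 137, 232 and 329 CPM at day 4, and all 6 of its members that were tested rose, among them Prrx2 (a homeobox gene of mesenchyme, log2 1.97), Foxf1 (a factor of lateral mesoderm, 1.49), Mef2c (1.06) and Isl1 (1.04). Prrx2 alone had a median of 21.0 CPM at day 3.5 and 139 CPM at day 4, so it made up much of the sum. Of the 14 markers, 7 had a median under 1 CPM at day 3.5 and 6 at day 4. Gata5 was at 0 in every gastruloid of both days, and the markers Hand1, Hand2, Gata4, Tbx20, Nkx2-5, Tbx1 and Tcf21 had too few counts to be tested. The 10 endothelium markers summed to 0, 7.60 and 14.3 CPM and then to 6.79, 12.3 and 238 CPM. None of the endothelium markers had enough counts to be tested, and Emcn was at 0 on both days. Neural markers summed to 110, 134 and 176 CPM and to 99, 126 and 178 CPM. Of 16 listed, 6 were tested, 4 higher and 2 lower (median log2 1.05), with Sox2 (a factor of neural and pluripotent cells) higher by 1.43 from a median of 1.17 CPM and Nkx1-2 (a marker of caudal epiblast) lower by 2.49. Endoderm markers summed to 31.9, 88.6 and 177 CPM and to 53.4, 77.4 and 110 CPM, with 2 higher and 3 lower of 5 tested. Counts in these marker lists stand beside 19.7% higher and 18.6% lower over all genes. Whether cells of other types inside the cluster contribute to the changes above was not tested.

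These changes were compared with those in Caudal Epiblast cells, the Wnt-responsive progenitors next to the presomitic mesoderm, taken from the same gastruloids. An interaction of day with cell type was fitted with the gastruloid as a block (13 gastruloids at day 3.5, 15 at day 4). Of 9767 genes, 12.6% changed differently in the 2 cell types, 482 (4.93%) with the higher change in Early Posterior PSM and 753 (7.71%) with the lower. Leaving out lane A, B, C or D in turn brought the first count to between 258 (without lane A) and 334, and a minimum of 20 cells to 311. All 14 presomitic determination genes tested (of 15 listed) were among the genes called, 2 higher and 12 lower (median -1.08), and so were 10 of 18 FGF genes, all lower (median -0.44), and 8 of 20 Wnt genes, all lower. Some determination genes had almost no transcripts in Caudal Epiblast, such as Msgn1 (1.20 and 0.953 CPM) and Pcdh8 (1.25 and 0.503 CPM). The clusters may also have been drawn from such genes, so that count is a description. Of 20 S phase genes 0 were called.

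T had a mean of 261 CPM (normalised with edgeR's TMM factors, as are the values in this paragraph) at day 3.5 and 71.1 CPM at day 4 in Early Posterior PSM, and 459 and 437 CPM in Caudal Epiblast, a difference of the log2 day changes of -1.74 ± 0.25 (adjusted p = 3.49e-06). Fgf17 went down in one and up in the other, from 18.5 to 5.02 CPM against 53.8 to 134 CPM (-3.05 ± 0.35, adjusted p = 8.41e-08). Wnt3a went from 18.9 to 3.08 CPM against 36.5 to 49.1 CPM (-2.87 ± 0.36). For Fgf3 the difference was -2.47, for Cdx2 -1.44 and for Sp5 -0.70. Tbx6 was at 172 and 132 CPM in Early Posterior PSM, where it is abundant, and at 16.5 and 37.9 CPM in Caudal Epiblast (-1.65 ± 0.29, adjusted p = 0.00011). Hes7 was at like levels in both, 189 and 194 CPM against 170.3 and 257 CPM (-0.58 ± 0.14, adjusted p = 0.00463). For Dll1 the difference was -0.90, which no longer passed at a minimum of 20 cells or without lane B or lane C (adjusted p = 0.0841, 0.0765 and 0.0873). For Msgn1 it was -1.94 and no longer passed without lane A (adjusted p = 0.127), with only 1.20 and 0.953 CPM in Caudal Epiblast.

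Several anterior presomitic and somite genes had almost no transcripts in Caudal Epiblast, so their differences rest on the change in Early Posterior PSM. Of 8 tested of 18 listed, 4 had the higher change in Early Posterior PSM and 1 the lower, beside 4.93% and 7.71% of all genes. Meox1 went from 2.96 to 35.6 CPM against 1.48 and 1.58 CPM (difference of log2 changes 3.72 ± 0.49, edgeR adjusted p = 7.18e-07). For Mesp2, at 0.707 and 0.869 CPM in Caudal Epiblast, the difference was 3.88, for Tcf15 2.84, for Pcdh8 2.87 and for Mesp1 2.05. Foxp1, a forkhead factor, went from 32.1 to 98.3 CPM against 38.8 and 40.3 CPM (1.65 ± 0.16). Smoc1, Efnb2 and Peli2 also rose more in Early Posterior PSM, by 1.52, 1.37 and 1.37. Dlc1, a GTPase-activating protein, went from 59.4 to 26.8 CPM against 4.73 to 13.2 CPM (-2.73 ± 0.25, adjusted p = 8.04e-10).

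**Figure D5:**
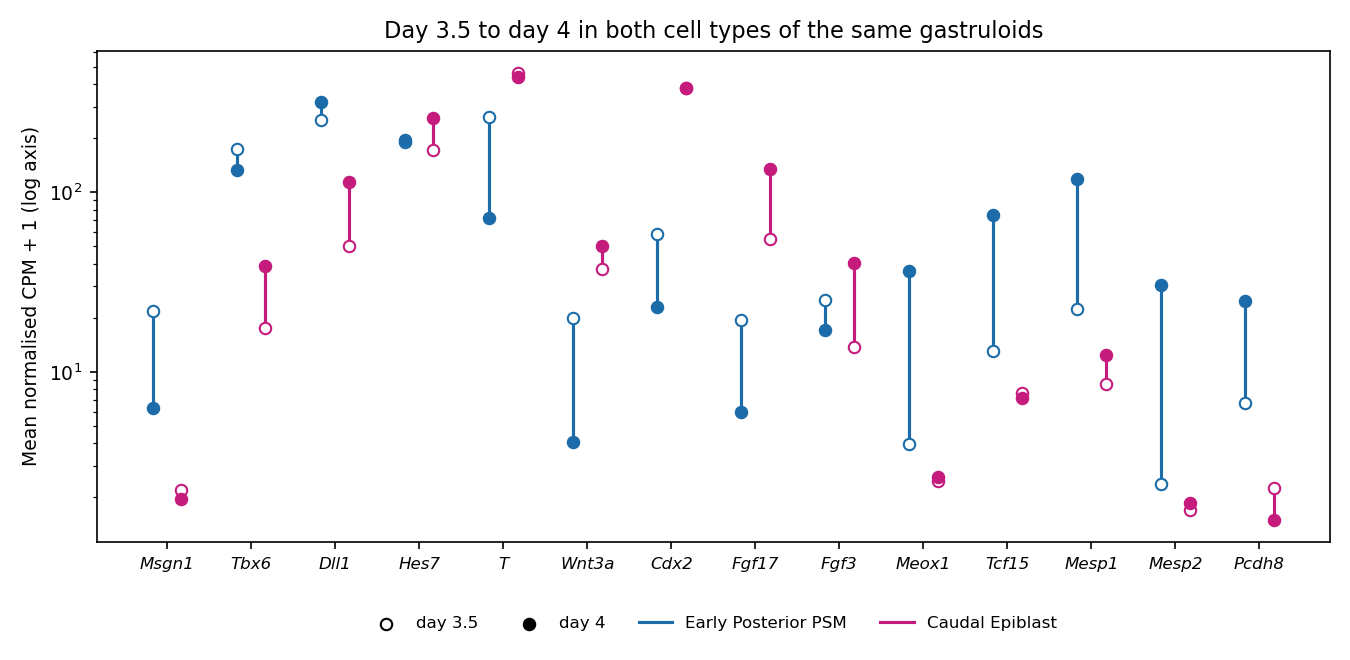
Mean normalised CPM + 1 (log axis) of 14 genes at day 3.5 (open circles) and day 4 (filled circles) in Early Posterior PSM (blue) and Caudal Epiblast (magenta) cells of the same gastruloids of MULTI-seq 3; lines join the 2 days and no error is drawn. T and Cdx2 go down in blue and hardly move in magenta, Fgf17 and Fgf3 go down in blue and up in magenta, and Meox1, Tcf15 and Mesp2 go up in blue alone.

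Beside the neighbouring clusters at day 4 of MULTI-seq 3, the cells held intermediate levels of several anterior genes. These levels are a description, since the clusters may have been drawn from the same genes. Tcf15 had a mean of 72.2 ± 30.4 CPM in Early Posterior PSM (n = 16), 29.2 ± 29.0 CPM in Late Posterior PSM (n = 14) and 502 ± 146 CPM in Early Anterior PSM (n = 14). Meox1 followed the same order, with 34.99 ± 12.5, 12.1 ± 8.72 and 76.1 ± 29.8 CPM, and so did Mesp2, with 29.0 ± 12.9, 5.82 ± 5.33 and 66.5 ± 26.8 CPM. In Aldh1a2 the early cells stood beside Early Anterior PSM, at 983 ± 138 CPM against 1059 ± 123 CPM, with 371 ± 88.8 CPM in Late Posterior PSM. Hes7 had its highest level in Late Posterior PSM (338 ± 41.3 CPM), followed by Early Posterior PSM (194 ± 41.5 CPM) and Early Anterior PSM (38.8 ± 17.4 CPM). Msgn1 was likewise higher in the late cells, at 11.8 ± 4.41 CPM against 5.29 ± 2.22 CPM, and Cdx2 stood at 114 ± 28.3 CPM against 22.6 ± 9.61 CPM. Tbx6 and Dll1 lay closer in the 2 posterior clusters, with Tbx6 at 155 ± 13.6 CPM in Late and 131 ± 32.1 CPM in Early Posterior PSM, and Dll1 at 337 ± 23.0 and 315 ± 56.8 CPM.

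Between day 3 and day 3.5 the markers Dll1, Tbx6 and Hes7 rose, Msgn1 did not pass the test, and 4 of 5 pluripotency genes tested fell. The presomitic determination list as a whole was mixed, with 5 higher and 5 lower of 13 tested (median -0.32). The 2 days of MULTI-seq 3 were in different pools, so day and pool cannot be told apart (11 gastruloids with 249 cells and 13 with 1214 cells). Of 6803 genes tested, 50.2% passed, 1684 higher (24.8%) and 1734 lower (25.5%) at day 3.5, with a median log2 change of 0.02. Without lane B of day 3, which leaves 5 day 3 gastruloids, 878 were higher. Dll1 went from 63.2, 76.2 and 106 CPM to 179, 241 and 378 CPM with no overlap (log2 1.45 ± 0.11, edgeR adjusted p = 1.96e-12). Tbx6 went from 38.0, 82.3 and 118 CPM to 115, 169 and 221 CPM (0.96 ± 0.12), and Hes7 from 40.8, 68.6 and 139 CPM to 128, 178 and 240.3 CPM (1.06 ± 0.13). Msgn1 stood at 14.4, 22.9 and 51.8 CPM and then at 10.8, 22.0 and 27.4 CPM (log2 -0.45 ± 0.20, adjusted p = 0.0567), which did not pass with edgeR and did with DESeq2 (adjusted p = 0.0322) or without lane C of days 3.5 and 4 (adjusted p = 0.0323).

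Among the genes called, the largest change was that of Aldh1a2, which stood at 1.46, 6.79 and 116 CPM at day 3 and at 218, 544 and 858 CPM at day 3.5 (log2 3.97 ± 0.35, adjusted p = 3.14e-11), higher in 13 of 13 gastruloids than any day 3 gastruloid. Greb1l, a retinoic acid receptor coactivator, rose by 3.42 from a median of 8.69 to 101 CPM, and Meis2, a homeobox partner of Hox proteins, by 2.41. Both separated the days without overlap, as did Lmo2, a LIM-domain protein of mesoderm and blood, with a rise of 2.71. All of these were picked for small adjusted p values. The protocadherin Pcdh19 rose by 2.91 and Foxc1 by 1.65. AY036118 and the histone gene Hist1h1e were also higher, by 1.26 and 1.02. Hist1h1e was also among the genes with the smallest adjusted p that were higher in MULTI-seq 3 than in MULTI-seq 2 at day 4. Of 10 Notch and clock genes 6 rose and 1 fell (median 0.60), with Nrarp higher by 2.07 and Notch1 by 0.79. The list of 18 Wnt genes gave 7 higher and 4 lower, while 24.8% of all genes were higher and 25.5% lower. Among them were Nkd1 (log2 1.44), a feedback antagonist, Lef1 (0.76), the nuclear effector, and Rspo3 (0.70), which went from 365, 457 and 528 CPM to 717, 779 and 969.5 CPM.

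Of 39 listed Hox genes 9 had enough counts to be tested, and these 9 were higher at day 3.5 (median 1.19), as were 24.8% of all genes. Hoxd4, Hoxa2 and Hoxb3 were low at day 3 and could be tested through day 3.5, so the count and the median are a description. Hoxd4 stood at 0, 3.89 and 10.2 CPM at day 3 and at 12.4, 25.8 and 38.9 CPM at day 3.5 (log2 2.45 ± 0.29), and Hoxb1 went from 63.2, 103 and 123 CPM to 144, 188 and 243 CPM (0.79 ± 0.08). Hoxb1 was thus higher at day 3.5 than at day 3, which was a separate pool, and lower again at day 4. Hoxa2 rose by 2.95 and Hoxb3 by 1.83.

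Of 5 pluripotency genes 0 rose and 4 fell (median -1.67), beside 24.8% and 25.5% of all genes. Pou5f1 went from 375, 518 and 643 CPM to 100.5, 177 and 282 CPM with no overlap (log2 -1.73 ± 0.13), L1td1, an RNA-binding protein of pluripotent cells, fell by 2.61 and Dppa5a, a marker of naive pluripotency and germ cells, by 1.67. Of 14 glycolysis genes 0 rose and 9 fell (median -0.25), with Eno1, Pgam1 and Gapdh lower by 0.51, 0.42 and 0.39. Phgdh, which diverts glycolytic carbon to serine, fell by 1.43 from 76.2, 111 and 151 CPM to 30.4, 43.9 and 54.1 CPM. Fst fell by 0.97. T (log2 -0.69 ± 0.20) and Evx1 (-0.85 ± 0.17) were lower at day 3.5 in the full data, but neither passed without lane B of day 3 (adjusted p = 0.16 and 0.182). Endoderm markers summed to medians of 188 CPM at day 3 and 88.6 CPM at day 3.5, and cardiac and head mesoderm markers to 24.6 and 65.0 CPM. Of 9 stress genes tested 3 rose and 4 fell, with Ddit4 higher by 1.10 and Hsp90aa1 lower by 0.43. Whether cells of other types contribute to these changes was not tested.

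Between day 4 and day 4.5 few genes passed the test. The fit had few cells, so the number of calls does not measure how far the cells changed. In pool B of MULTI-seq 2 there were 9 gastruloids with 201 cells at day 4 and 6 with 56 cells at day 4.5, at a minimum of 5 cells each. Of 5132 genes tested 0.351% passed, 14 higher (0.273%) and 4 lower (0.0779%), and 431 had an unadjusted p under 0.05. Without the filter on low counts 22 were higher and 32 lower, and in cells mapped to Intermediate mesoderm 5 and 7. Of 14 glycolysis genes 7 rose and 0 fell, with a median of 0.48. Aldoa went from 396, 482 and 588 CPM to 559.7, 702 and 1077 CPM (log2 0.59 ± 0.11, edgeR adjusted p = 0.00894). The lactate exporter Slc16a3 went from 5.31, 27.8 and 37.0 CPM to 8.27, 60.8 and 117 CPM (1.35 ± 0.26), and Pkm and Tpi1 rose by 0.39 and 0.69. Ptprz1, a receptor phosphatase, rose by 1.56. Ube2c and Cdk1, 2 genes of mitosis, were lower by 0.74 and 0.56. For Pkm, Tpi1, Ube2c and Cdk1 the call was lost without lane 3, which left 4 gastruloids at day 4.5 and 5 higher and 0 lower genes in all.

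Hes7 was higher at day 4.5, at 74.1, 182 and 397 CPM against 54.1, 103 and 174 CPM at day 4 (log2 0.92 ± 0.21, edgeR adjusted p = 0.0432), with 5 of 6 gastruloids above the day 4 median. The call was lost with DESeq2 (adjusted p = 0.0986) and without lane 3 (0.372). Dll1 was at 156, 249 and 362 CPM and then at 231, 277 and 390.2 CPM, and Tbx6 at 90.5, 124 and 324 CPM and then at 94.8, 122 and 190.1 CPM, and neither passed (adjusted p = 0.853 and 0.965). Msgn1 had too few counts to be tested.

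Day 4 cells of MULTI-seq 3 were set beside day 4 cells of MULTI-seq 2 (16 and 8 gastruloids) to see how far the markers repeat across experiments. Of 8560 genes 31.5% passed, 1268 higher (14.8%) and 1425 lower (16.6%) in MULTI-seq 3. Without lane 2 of MULTI-seq 2 the counts were 687 and 768, and without lane 3 they were 728 and 847. Tbx6 was at 90.5, 122 and 178 CPM in MULTI-seq 2 and 91.3, 126 and 207 CPM in MULTI-seq 3, and Dll1 at 156, 238 and 362 CPM and 231, 315 and 446 CPM. Neither passed the test (log2 -0.25 ± 0.14 and 0.15 ± 0.12). These fold changes are on the TMM-normalised scale, which places MULTI-seq 3 lower than the CPM do: normalised means were 137 and 128 CPM for Tbx6, whose CPM means were 125 and 131. The same holds for Foxc1 below, with normalised means of 239 and 189 CPM and CPM means of 218 and 194. Hes7 was higher in MULTI-seq 3 (log2 0.61 ± 0.15, adjusted p = 0.00239), a call lost at a minimum of 20 cells or without lane 2 of MULTI-seq 2 (adjusted p = 0.115 and 0.279). Of 9 anterior genes tested 0 were higher and 2 lower in MULTI-seq 3, Foxc1 (log2 -0.33) and Foxc2 (-0.45). Without lane 3 of MULTI-seq 2 neither passed, with Foxc1 at -0.24 (adjusted p = 0.149) and Foxc2 at 0.03. Pcdh8 was lower by 0.85 (log2 -0.85), a call lost without lane 2 or lane 3 of MULTI-seq 2 (adjusted p = 0.111 and 0.0547).

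The genes described next were among those with the smallest adjusted p values between the experiments. Pfn1, the actin-binding protein profilin, stood at 75.3, 82.1 and 105 CPM in MULTI-seq 2 and at 854, 938 and 1050.0 CPM in MULTI-seq 3 (log2 3.30 ± 0.06, edgeR adjusted p = 2.9e-32). The small GTPase gene Arf5, the transcription factor gene Usf1 and the mRNA export factor gene Alyref were higher by 3.20, 3.62 and 2.29. The chaperone gene Hspa8 was lower by 0.86 and Slc24a5, a cation exchanger gene known from pigment cells, by 1.48, both with no overlap between experiments. Caudal Epiblast cells of the same day showed the same separation, with a median Pfn1 of 116 CPM in MULTI-seq 2 (n = 5) and 1258 CPM in MULTI-seq 3 (n = 15), and Arf5 at 15.4 and 186 CPM. Experiment, culture and library cannot be told apart here.

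The libraries without gastruloid calls gave single values of the same genes. From the untagged day 3 lane to the untagged day 4 lane, T stood at 367 and 56.8 CPM (exact 95% Poisson intervals, counting error only, 355 to 379 and 49.0 to 65.4), Pou5f1 at 453 and 68.6 CPM, Aldh1a2 at 168 and 979 CPM and Meox1 at 0.0965 and 35.5 CPM. The untagged day 3 cells thus held more Aldh1a2 than the highest tagged day 3 gastruloid with at least 10 such cells (116 CPM). Msgn1 was at 5.50 CPM (57 UMIs) and 0.887 CPM (3 UMIs, interval 0.183 to 2.59), below the lowest gastruloid of MULTI-seq 3 with at least 10 such cells at day 3 (14.4 CPM) and at day 4 (2.04 CPM). The lowest day 4 gastruloid of MULTI-seq 2 had 0 CPM, so the untagged day 4 value is within the range of that experiment. The 2 lanes of pool C of MULTI-seq 2, which mix days 4 and 4.5, gave 5.93 and 3.69 CPM of Msgn1, 140 and 132 CPM of Tbx6, and 775 and 850.2 CPM of Aldh1a2. There is 1 lane for each untagged day, and no test was made.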

How the data were processed

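Single-cell UMI counts per gene and cell barcode were deposited by the authors for each lane, with a table of final cells that gives cluster, embryo mapping, phase and MULTI-seq call. Cell Ranger 6.0.0, Seurat and genome build mm10 are named in the submitters' processing notes. The sources used here do not say how clusters and mappings were made. Cells called as doublets or negative were kept in cell counts, the mapping over all cells, values of single lanes and the shares of cells with a UMI, and left out of comparisons between gastruloids; no further caller was run.

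Early Posterior PSM cells were taken by cluster label, with no other filter on cells, and their deposited counts were summed per gastruloid with at least 10 such cells. The comparison of day 4.5 with day 4 could not be fitted at 10 cells (8 and 2 gastruloids) and used at least 5. The sums were tested with edgeR 4.0.16 (quasi-likelihood, TMM, filterByExpr, Benjamini-Hochberg over all genes tested) in R 4.3.3, with DESeq2 1.42.0 as an alternative. Of genes changed in simulated data for day 4 against day 3.5 (9526 genes), edgeR recovered 98.98% of 98 genes at a log2 change of 1 and 100% of 92 at 2, with 9 false calls. Those counts were drawn from edgeR's own fitted dispersions with few genes changed, so high recovery was built in. The smaller fits, such as day 4.5 against day 4, were not simulated. Shares (gastruloids of at least 30 cells, or 10 posterior PSM cells) were compared by permutation. Fits with only the cells of the most frequent mapped type, with other cell minima, with 10 drawn cells per gastruloid and with each lane left out were also run.

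Genes named are the 10 with the smallest adjusted p in each direction at a log2 change of at least 1, up to 4 called members of each gene list, and the 4 markers, from which the text gives a choice. Predicted, ribosomal protein, mitochondrial and haemoglobin genes were left out of the first group. List members named beside these, and comparisons with neighbouring clusters, were chosen after their values were seen. The members and lists were chosen with earlier results of these data known. Cells of a gastruloid are not replicates. Intervals for single lanes are exact and cover counting error only.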

Additional observations from a re-analysis of the deposited data

Results flagged for a closer look

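Of 36 groups of 4 to 10 gastruloids examined for the named genes, 3 held 1 gastruloid far from the others, and chance alone marks about 1 group in 20. In MULTI-seq 2 at day 4 the highest of 9 gastruloids for Tbx6 had 323.7 CPM, with the next at 178.5 CPM. At day 4.5 the highest of 6 gastruloids for Ube2c had 487.6 CPM, with the next at 279.7 CPM. At day 4 the lowest of 8 gastruloids for Hoxb2, a Hox gene of the anterior trunk, had 63.59 CPM, with the next at 134.3 CPM.

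For 20 named genes the change from day 3.5 to day 4 differed between Early Posterior PSM and Caudal Epiblast cells of the same gastruloids. Most of them were named because they passed this same test, as 12.6% of 9767 genes did, so their number is a description. The difference of log2 changes was lower in Early Posterior PSM for Msgn1 (-1.94), Tbx6 (-1.65), Dll1 (-0.90), Hes7 (-0.58), T (-1.74), Wnt3a (-2.87), Cdx2 (-1.44), Fgf17 (-3.05), Fgf3 (-2.47), Sp5 (-0.70) and Dlc1 (-2.73). It was higher for Meox1 (3.72), Tcf15 (2.84), Mesp1 (2.05), Mesp2 (3.88), Pcdh8 (2.87), Foxp1 (1.65), Peli2 (1.37), Smoc1 (1.52) and Efnb2 (1.37). The calls of Dll1 and Msgn1 were lost under some of the alternatives, as given above.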

How the results depend on the processing

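No paired analysis was possible between days or experiments because the replicate is the gastruloid, which was sampled on 1 day, and lanes of a pool are shares of the same gastruloids; in the comparison with Caudal Epiblast the gastruloid was the block. Of 1492 values of 150 gene results under the alternatives, 1438 kept direction and side of the threshold, 46 lost the call, 2 gained it and 6 changed sign. The sign changes were Hes7 at day 4 against 3.5 without lane C (-0.0058) or D (-0.0376), with up to 0.0611 when other lanes were left out, Dll1 at day 4.5 against 4 in cells mapped to Intermediate mesoderm (-0.0005), and, in MULTI-seq 3 against 2, Tbx6 with 10 cells drawn (0.0331), Dll1 without lane 2 (-0.0048, and 0.3227 without lane 3) and Foxc2 without lane 3 (0.0324, and -0.6226 without lane 2). With 10 cells drawn per gastruloid, 296 genes were higher and 353 lower at day 4 against 3.5 (4507 tested), 709 and 695 at day 3.5 against 3, and 467 and 498 in MULTI-seq 3 against 2; fewer genes were tested there. At day 4.5 against 4, cells mapped to Intermediate mesoderm gave 5 higher and 7 lower and no filter gave 22 and 32. Without a filter 918 were lower in MULTI-seq 3 against 2, and a minimum of 20 cells gave 311 with a higher change than in Caudal Epiblast; the cause was not tested. Leaving out 1 lane each gave 1460 to 1571 higher and 1560 to 1623 lower at day 4 against 3.5, 878 to 1714 and 1158 to 1714 at day 3.5 against 3, 5 and 0 at day 4.5 against 4, 687 to 1316 and 768 to 1393 in MULTI-seq 3 against 2, and 258 to 334 and 572 to 602 against Caudal Epiblast. The lowest values in MULTI-seq 3 against 2 came without lane 2 (687 and 768) or lane 3 (728 and 847) of MULTI-seq 2, and against Caudal Epiblast the lowest higher count came without lane A (258) and the lowest lower count without lane C (572). The difference in early share ran from -33.0 to -32.5 and from -46.7 to -36.1 points, and that in share of cells from 17.01 to 18.7 points; as a difference of medians the last was 8.20 points. At day 4.5 against 4, a minimum of 10 or 20 cells, 10 drawn cells and leaving out lane 2 could not be fitted, nor could mapped cells at day 3.5 against 3. Genes of a few CPM, such as Msgn1 at day 4, rest on few UMIs per gastruloid.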
